A study of Oryza sativa with 12 samples.

Results

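The plant circadian clock is described here through 10 genes, of 38978 annotated genes in the deposited tables, in polysome-bound mRNA of rice leaf (Oryza sativa). The genes were picked by locus ID and not by a measured value. Chosen for their known clock role were CCA1, the pseudo-response regulator genes OsPRR73, OsPRR37, OsPRR95, OsPRR59 and OsPRR1, both ELF3 genes and GI. The remaining one is a locus named LHY, taken for its deposited name. No clock role is given to it here, but counts of the 10 clock genes include it. Polysome-bound mRNA is the mRNA that sediments with several ribosomes and so is taken as being translated. Leaves came from 2 cultivars, APO and IR64, which the series title calls tolerant and susceptible. The 4 groups are control APO, 50% drought APO, control IR64 and 50% drought IR64, each with 3 libraries (12 altogether). Neither plant age nor hour of harvest is in the labels, and they do not say whether libraries of 1 group are from different plants. The time of day at harvest and the treatment therefore cannot be told apart for these genes, and a p-value reflects how far libraries scatter, part of which may be technical. A change in translation and one in mRNA amount cannot be told apart, as no total RNA was analysed here.

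The clock of plants is a loop of transcription factors that repress one another in turn over the day. CCA1, a MYB-related repressor, peaks around dawn. The PRR repressors follow in waves through the day, ending with OsPRR1, the rice counterpart of TOC1, in the evening. GI, which acts with the blue-light receptor FKF1 in flowering-time control, peaks towards the end of the day, and ELF3 forms the evening complex with ELF4 and LUX. In rice OsPRR37 (also Hd2) and OsELF3-1 (also Hd17) are known as heading-date genes.

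Levels are TPM rescaled to the same total over the 37849 nuclear loci of every library, called nuclear-scaled TPM here. The rescaling was needed because nuclear loci held from 1.21 to 83.3% of the deposited TPM, with rRNA and organelle genes holding most of the rest. The lowest share was that of the library labelled APO drought 1. This library also had only 9976 nuclear loci above 0, against 15357 to 31980 in the others, and 0 of 17 genes typical of APO above 1 nuclear-scaled TPM, against 12 of 17 typical of IR64. It thus went against its label. APO control 3 was the other library under 10% nuclear TPM, at 5.04%. It had 17 of 17 genes typical of APO above 1, but also 10 of 17 typical of IR64. Among the rest, IR64 control 1 had 8 of 19 typical of APO above 1 (median 0.49). APO control 2 had 7 of 23 typical of IR64 (median 0.28). Each limma test is given with all 12 libraries and again without the 2 under 10% (10 libraries, which leaves 2 in each APO group). Within IR64 control, libraries 1 and 2 were more alike (Spearman 0.934 over nuclear loci) than either was to library 3 (0.893 and 0.903). The 7 leaf markers (Rubisco, its activase and light-harvesting genes) were above 0 in all 12 libraries. Their summed level was 8457 to 21347 nuclear-scaled TPM in APO control, 2230 to 8348 in APO drought, 15374 to 83631 in IR64 control and 6906 to 16367 in IR64 drought. The summed level of 4 root markers was 3.48 to 79.3 over all libraries. The part of these marker levels in the results was not tested, and in leaf tissue fewer cells of a type cannot be told apart from less RNA per cell.

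**Figure D1:**
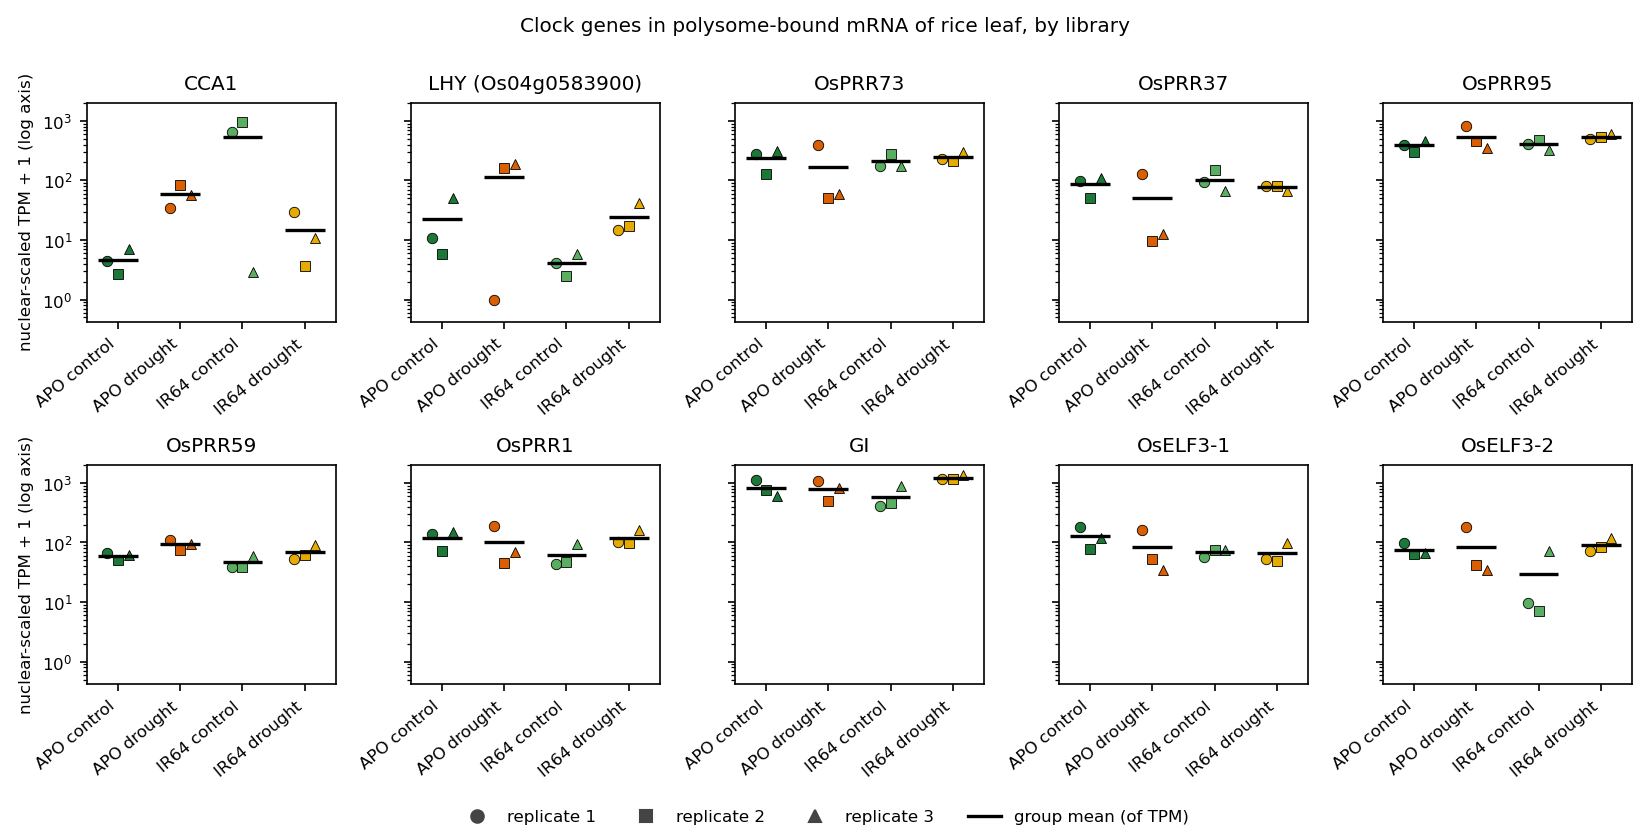
Nuclear-scaled TPM plus 1 (log axis) of each clock gene in each of the 12 libraries, by group, with symbols for the replicate number and a line at the group mean of TPM. CCA1 runs from 1.63 to 953, while OsPRR95 stays between 301.9 and 814.

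All 10 genes passed the filter of a mean of 1 nuclear-scaled TPM, but they differed greatly in how far they moved between libraries. CCA1 had the widest range, with its highest library 584-fold above its lowest. OsELF3-2 ranged over 29.5-fold, OsPRR37 over 16.9-fold and OsPRR73 over 7.91-fold. OsELF3-1, OsPRR1, GI, OsPRR59 and OsPRR95 ranged over 5.31, 4.38, 3.33, 2.88 and 2.70-fold, in that order. GI and OsPRR95 were among the most abundant polysomal mRNAs in every library: GI stood above at least 98.9% and OsPRR95 above at least 98.6% of the loci detected in the same library. The LHY-named locus reached 187 in APO drought 3 and was listed at 0 in another library of that group, so no fold is given for it. Read depth was thin for CCA1, whose mean coverage was under 1 read per base in 4 of the 12 libraries. For OsPRR37 and for the LHY-named locus this was so in 1 library each.

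CCA1 (Os08g0157600, chromosome 8, 3360865 to 3373395), the dawn repressor, stood at 3.44, 1.63 and 6.01 nuclear-scaled TPM in APO control 1, 2 and 3. Under drought the APO libraries had 33.7, 82.6 and 55.5. The IR64 controls had 636, 953 and 1.91, and the IR64 drought libraries 28.2, 2.60 and 9.74. Every APO drought library was thus above every APO control library, the one labelled APO drought 1 included, as for 4.69% of tested loci. Coverage of CCA1 was only 0.36 reads per base in that library, and 0.54 and 0.25 in APO control 1 and 3. In IR64 control 2 libraries held the highest CCA1 levels of the series, and the third held one of the lowest. The group means, in falling order, were 530.1 ± 484 in IR64 control, 57.2 ± 24.5 in APO drought, 13.5 ± 13.2 in IR64 drought and 3.69 ± 2.20 in APO control (SD, n = 3). On the TPM scale, IR64 control and APO drought means differed by less than the SD of IR64 control, a group split 2 against 1. IR64 drought and APO control means differed by less than the SD of IR64 drought. Neither difference was tested.

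The locus that the deposited tables name LHY (Os04g0583900, chromosome 4, 29500955 to 29503774) is not the rice gene usually called by that name. The RefSeq gene table lists LHY as a synonym of the CCA1 gene of chromosome 8, and no role is given here to the locus on chromosome 4. It stood at 9.59, 4.77 and 50.4 nuclear-scaled TPM in APO control, and was listed at 0 and stood at 158 and 187 under drought. The IR64 levels were 3.09, 1.49 and 4.88 in control and 13.8, 16.0 and 40.6 in drought. It did not follow CCA1 in IR64 control 1 and 2, where CCA1 was at its highest and this locus at its lowest levels above 0. In IR64 every drought library was above every control library, as for 10.3% of tested loci. In APO this held for libraries 2 and 3 but not for the library labelled APO drought 1.

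OsPRR37 (Os07g0695100, named Hd2 in the tables; chromosome 7, 29616705 to 29629215) stood at 98.3, 50.6 and 107 nuclear-scaled TPM in APO control. Under drought the APO libraries had 127, 8.65 and 11.8, of which the last 2 were the lowest levels of the series. The IR64 levels of OsPRR37 were 94.4, 146 and 64.5 in control and 79.9, 79.8 and 65.3 in drought. OsPRR73 (Os03g0284100, chromosome 3, 9759666 to 9768689), the other regulator of the same subfamily, had the same order of libraries in APO drought. Its APO levels were 272, 128 and 306 in control and 398, 50.3 and 57.4 in drought. Its IR64 levels were 175, 278 and 173 in control and 229, 213 and 297 in drought. For both genes the IR64 groups overlapped, and APO drought 2 and 3 were below every other library.

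OsPRR95 (Os09g0532400) and OsPRR59 (Os11g0157600), the later day regulators, had the narrowest ranges of the 10. OsPRR95 stood at 390.2, 301.9 and 462 nuclear-scaled TPM in the APO controls and at 814, 450.2 and 343 under drought. For IR64 the same gene had 400.2, 479 and 324 in control and 489, 528 and 611 in drought. OsPRR59 levels in APO were 65.6, 49.4 and 61.2 in control and 111, 72.6 and 94.4 in drought. OsPRR59 levels in IR64 were 38.5, 38.5 and 59.3 in control and 52.4, 60.3 and 88.3 in drought. The drought groups lay above the control groups without overlap for OsPRR59 in APO and for OsPRR95 in IR64. The same order held for 4.69% of tested loci in APO and 10.3% in IR64. For OsPRR95 it depended on the scaling. Its IR64 groups overlapped with median-of-ratios scaling, and drought lay lower without overlap in deposited TPM.

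OsPRR1 and GI were lowest or near their lowest in IR64 control 1 and 2. OsPRR1 (Os02g0618200), the last regulator of the daily wave, stood at 136, 72.2 and 149 nuclear-scaled TPM in the APO controls and at 189.5, 44.1 and 68.2 under drought. Among IR64 libraries it had 43.3, 45.9 and 92.1 in control and 102, 98.0 and 161 in drought, without overlap. In IR64 10.3% of tested loci had this order, which OsPRR1 lost in deposited TPM. GI (Os01g0182600, chromosome 1, 4329362 to 4338486) stood at 1131, 756 and 597 in the APO controls and at 1059, 486 and 809 under drought. GI had 409, 452 and 895 in IR64 control and 1152, 1171 and 1363 in IR64 drought, without overlap here but not in deposited TPM. Its group means, in falling order, were 1229 ± 117 in IR64 drought, 828 ± 274 in APO control, 785 ± 287 in APO drought and 585 ± 269 in IR64 control (SD, n = 3), of which the last 3 lay within each other's spread.

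The ELF3 genes, scaffold subunits of the evening complex, behaved differently from each other in IR64. OsELF3-2 (Os01g0566100, chromosome 1, 21637031 to 21643111) had 8.53, 6.05 and 70.0 nuclear-scaled TPM in the IR64 controls and 72.0, 82.2 and 118 under drought. OsELF3-1 (Os06g0142600, named HD3B in the tables) had 56.1, 74.3 and 72.8 in the IR64 controls and 51.9, 48.0 and 96.4 under drought, with the groups overlapping. OsELF3-2 was thus low in IR64 control 1 and 2, the same libraries in which CCA1 was high, while OsELF3-1 was not. For APO the levels of OsELF3-2 were 97.4, 62.2 and 65.3 in control and 178, 40.5 and 33.3 in drought. Those of OsELF3-1 were 181, 77.0 and 119.5 in control and 159, 51.6 and 34.2 in drought. For both genes APO drought 2 and 3 were below all APO controls, and the library labelled APO drought 1 was not.

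**Figure D2:**
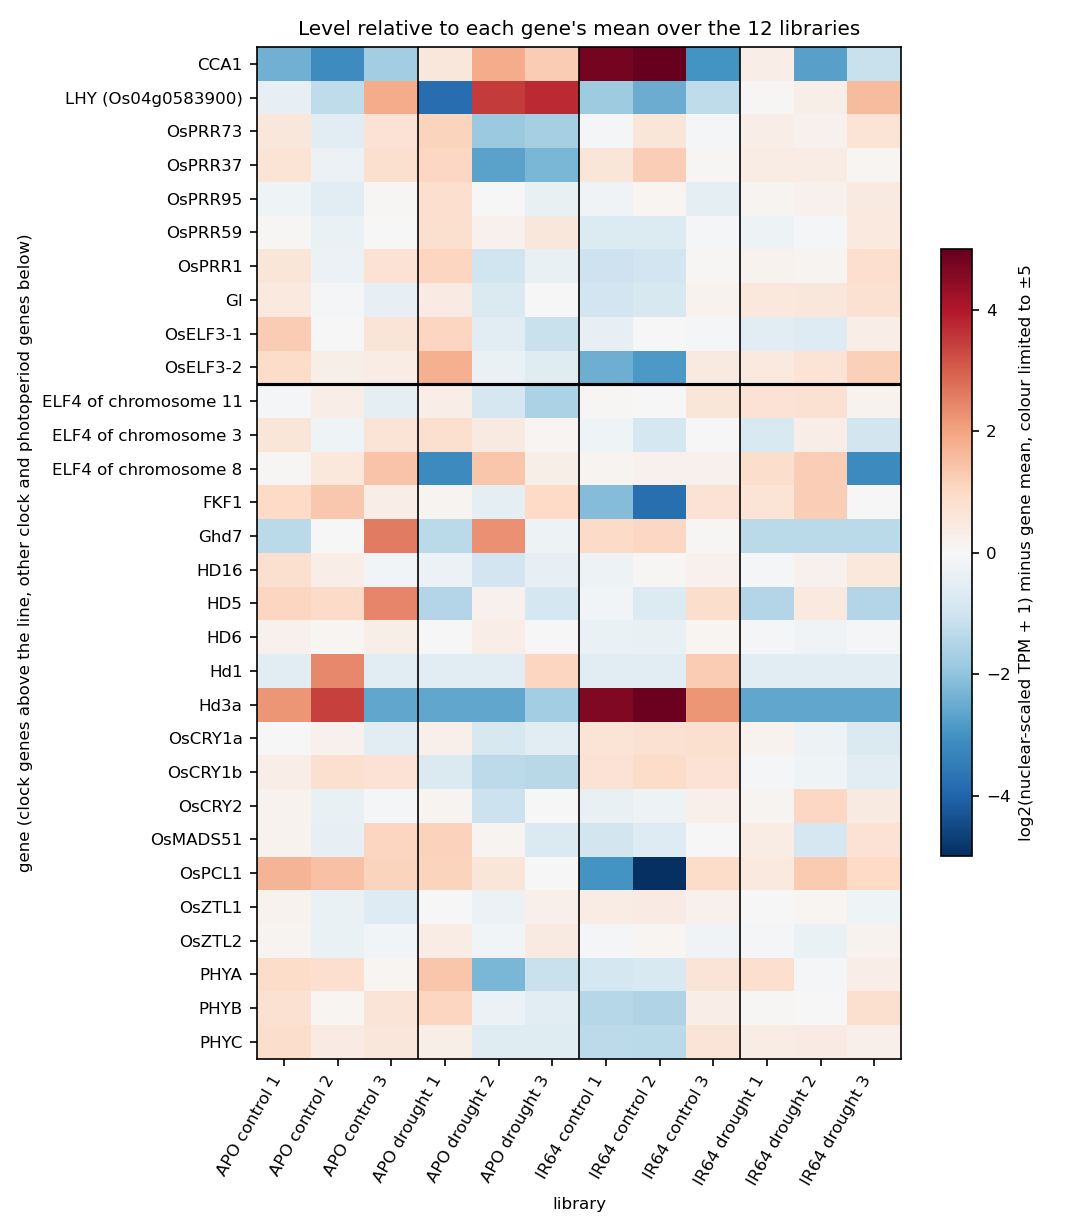
Level of each clock gene (above the line) and of 20 other clock and photoperiod genes (below) in each library, as log2(nuclear-scaled TPM + 1) minus the gene's mean over the 12 libraries. IR64 control 1 and 2 have CCA1 at 636 and 953 and OsELF3-2 at 8.53 and 6.05, and APO drought 2 and 3 have OsPRR37 at 8.65 and 11.8.

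The first comparison asked how drought changed these genes in APO. With 12 libraries, 0 of the 10 clock genes were called (limma, adjusted p < 0.05 over 26192 loci), where 3.03% of all tested loci were called. At unadjusted p < 0.05 there were 2 of 10, beside 19.3% of loci. The largest drought difference was that of CCA1 (3.65 ± 1.61 on the log2 scale, SE; limma, adjusted p = 0.234) and the next that of OsPRR37 (-1.71 ± 0.79, adjusted p = 0.256). CCA1 and OsPRR59 were the 2 genes with every drought library above every control library, against 4.69% of tested loci. The same 2 did so with median-of-ratios scaling (4.77% of loci), but in deposited TPM the groups overlapped for all 10 genes. With 10 libraries, where 2 stand against 2, the drought libraries were above for 3 genes and below for 5, against 25.7 and 37.8% of loci. The median difference was -0.16 over the 10 genes and -0.63 over all tested loci.

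With 10 libraries, 3 of the 10 clock genes were called in APO, 1 higher and 2 lower, where 14.4% of 22812 tested loci were called (6.8% higher, 7.6% lower). The LHY-named locus rose, with a log2 difference of 4.46 ± 0.64 (SE; 2 libraries in each APO group; limma, adjusted p = 0.00149). OsPRR37 fell by 2.69 ± 0.47 (adjusted p = 0.00435) and OsPRR73 fell by 1.78 ± 0.44 (adjusted p = 0.0224). Coverage of OsPRR37 was only 0.83 reads per base in APO drought 2, where nuclear loci held 13.3% of TPM. Every OsPRR37 call given here and below includes that library. CCA1 differed by 4.33 ± 2.16 (adjusted p = 0.203) and OsELF3-1 by -1.47 ± 0.50 (adjusted p = 0.0732). The error of CCA1 is shared over the groups and so carries the spread of IR64 control. When IR64 control 3 was the 1 library left out, CCA1 rose in APO (3.65; limma, adjusted p = 0.021) and 1 of 10 was called, beside 3.16% of loci. When only the library labelled APO drought 1 was left out, 3 were called, beside 11.6% of loci, with OsPRR37 at -2.88. In the test of 12 libraries the other differences in APO were 1.08 ± 1.54 for the LHY-named locus, -1.06 ± 0.67 for OsPRR73, -0.85 ± 0.58 for OsELF3-1 and 0.64 ± 0.44 for OsPRR59. They were -0.45 ± 0.58 for OsPRR1, 0.40 ± 0.41 for OsPRR95, -0.23 ± 0.82 for OsELF3-2 and -0.10 ± 0.45 for GI.

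The next comparison asked the same in IR64. With 12 libraries 0 of the 10 genes were called (limma), where 0.00764% of tested loci were called, and 3 were at unadjusted p < 0.05, beside 7.21% of loci. On the log2 scale OsELF3-2 differed by 2.42 ± 0.82 (SE; limma, adjusted p = 0.453), GI by 1.16 ± 0.45 (adjusted p = 0.547), OsPRR1 by 1.03 ± 0.58 and CCA1 by -3.54 ± 1.61 (adjusted p = 0.68). In deposited TPM the differences of GI and OsPRR1 turned to -0.42 and -0.52. The drought libraries lay above the control libraries without overlap in 5 of the 10 genes (the LHY-named locus, OsPRR95, OsPRR1, GI and OsELF3-2), against 10.3% of tested loci (11.8% of those tested with 10 libraries). This held for 3 of them, the LHY-named locus, OsPRR1 and GI, with median-of-ratios scaling (5.68% of loci). In deposited TPM it held for 1, the LHY-named locus (1.85% of loci), while OsPRR73, OsPRR37, OsPRR95 and OsELF3-1 lay lower in drought without overlap (35.8% of loci). The scalings of the overlap, here and in the other comparisons, were tried after the data were seen. The LHY-named locus differed by 2.48 ± 1.54, OsPRR59 by 0.55 ± 0.44, OsPRR95 by 0.45 ± 0.41, OsPRR37 by -0.36 ± 0.79, OsPRR73 by 0.26 ± 0.67 and OsELF3-1 by -0.11 ± 0.58. The test with 10 libraries uses the same IR64 libraries, so the differences stay as they are and their errors change. The LHY-named locus, given no clock role here, was then the 1 gene of the 10 called (2.48 ± 0.52, limma, adjusted p = 0.0462). Of all tested loci 1.42% were called and 1.12% were called higher.

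The IR64 result turned on library 3 of the controls. Without it, 2 of the 10 genes were called, beside 2.00% of all loci: CCA1 fell by 6.23 log2 units (limma, adjusted p = 0.00521) and OsELF3-2 rose by 3.45 (adjusted p = 0.0237). Without IR64 control 1 or 2, 0 of the 10 were called.

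**Figure D3:**
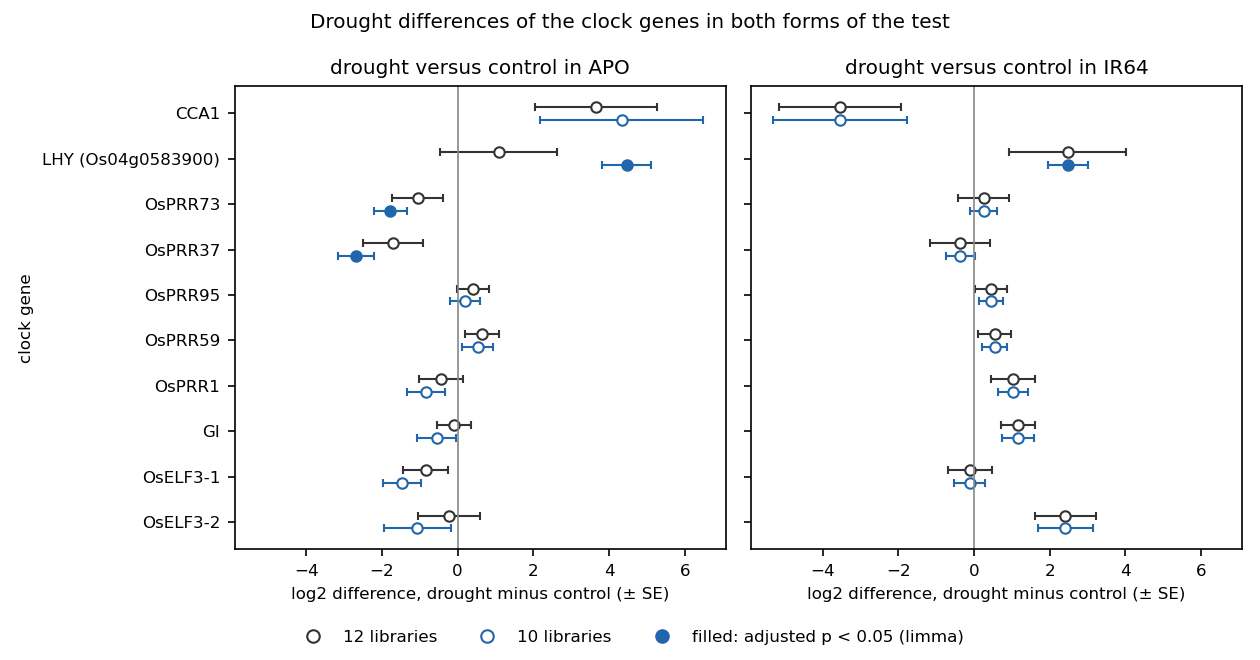
Difference between drought and control (log2, ± SE from limma) of each clock gene in APO (left) and IR64 (right), with 12 libraries (black) and with 10 (blue), filled where adjusted p is under 0.05. In APO the LHY-named locus moves from 1.08 to 4.46 and OsPRR37 from -1.71 to -2.69 between the forms, while the IR64 points stay in place.

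A ratio of 2 genes within a library does not depend on how much rRNA the library holds, apart from the pseudocount of 1. The log2 ratio of CCA1 to OsPRR1, of dawn to evening repressor, was -4.95, -4.80 and -4.42 in APO control and -2.46, 0.89 and -0.29 in APO drought. Every APO drought library, the one labelled APO drought 1 included, was above every APO control library. The means were -4.72 ± 0.27 and -0.62 ± 1.70 (SD, n = 3 and 3), a difference of 4.10 (exact two-sided permutation test, p = 0.1, the smallest this design allows). In IR64 the ratio was 3.845, 4.35 and -4.999 in control and -1.81, -4.78 and -3.91 in drought. Both signs occurred within IR64 control, and the groups overlapped. The difference was -4.57 (exact two-sided permutation test, p = 0.4).

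The log2 ratio of CCA1 to GI, which shares CCA1 with the first ratio, gave the same order of group means, though not of libraries. It was -7.99, -8.17 and -6.41 in APO control and -4.93, -2.54 and -3.84 in APO drought, again without overlap (difference 3.75, exact two-sided permutation test, p = 0.1). In IR64 it was 0.63, 1.07 and -8.265 in control and -5.30, -8.35 and -6.99 in drought (difference -4.69, exact two-sided permutation test, p = 0.3). With 10 libraries the APO differences of the ratios to OsPRR1 and GI were 5.17 and 4.89 (exact two-sided permutation test, p = 0.333, the smallest that 2 against 2 allows). IR64 control 1 and 2 were the only libraries of the 12 with more CCA1 than GI.

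**Figure D4:**
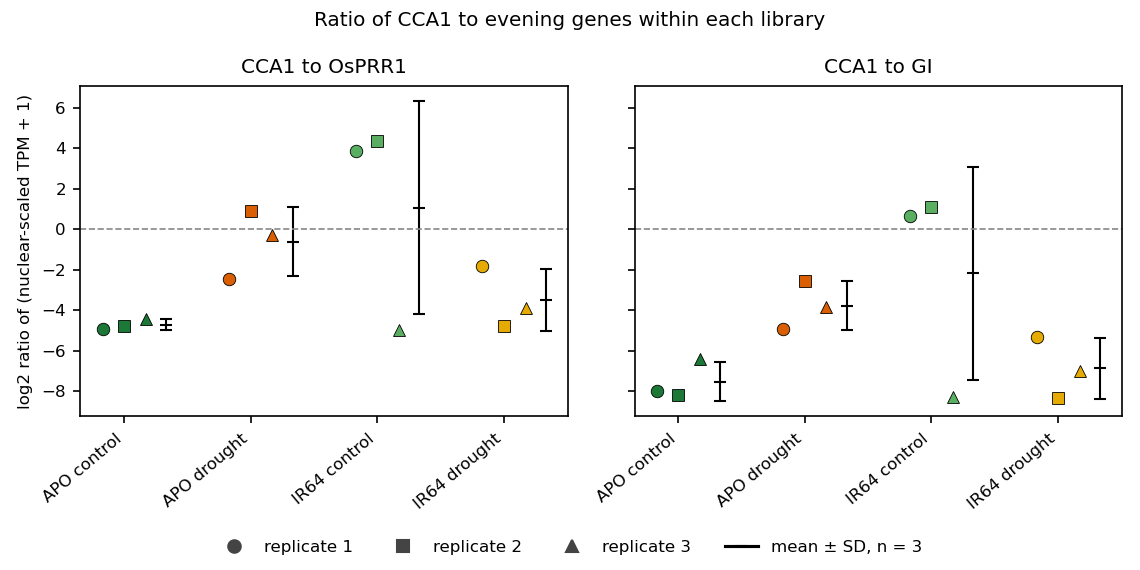
Log2 ratio of CCA1 to OsPRR1 (left) and to GI (right) within each library, with the mean ± SD of each group (n = 3) beside the points. The APO drought libraries lie above the APO controls (-0.62 against -4.72 on the left), and IR64 control holds libraries at 4.35 and -4.999.

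Between the cultivars in control plants, with 12 libraries, 0 of the 10 genes were called (limma) where 0.111% of tested loci were, and 2 were at unadjusted p < 0.05, beside 7.59% of loci. With 10 libraries 0 were called where 0.605% of loci were, and 2 were at unadjusted p < 0.05, beside 10.5% of loci. The fitted APO minus IR64 difference was -4.80 ± 1.61 on the log2 scale for CCA1 (SE; limma, adjusted p = 0.488) and 2.14 ± 0.82 for OsELF3-2 (adjusted p = 0.593). Without IR64 control 3 both passed (CCA1 -7.49, adjusted p = 0.00243, and OsELF3-2 3.18, adjusted p = 0.0385), beside 1.63% of loci. OsELF3-1 was the 1 clock gene with all APO controls above all IR64 controls, against 11.4% of tested loci (17.9% with 10 libraries). Its groups overlapped with median-of-ratios scaling and in deposited TPM. In deposited TPM CCA1, OsPRR73, OsPRR37 and OsPRR95 lay lower in APO without overlap, against 13.3% of loci.

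Between the cultivars under drought, 0 of 10 were called with 12 libraries (limma; 0 at unadjusted p < 0.05, beside 12.0% of loci) where 0.176% of tested loci were. With 10 libraries 3 were called, where 12.3% of tested loci were (5.66% higher and 6.68% lower in APO). The LHY-named locus was higher in APO (log2 difference 2.98 ± 0.58, SE, from 2 APO and 3 IR64 libraries; limma, adjusted p = 0.00998), OsPRR37 lower (-2.77 ± 0.43, adjusted p = 0.00331) and OsPRR73 lower (-2.16 ± 0.40, adjusted p = 0.00756). With 12 libraries these 3 differences were 0.51 ± 1.54, -1.59 ± 0.79 and -1.21 ± 0.67. These 3 were also called without the library labelled APO drought 1 alone, beside 6.09% of loci. CCA1 was higher in every APO than in every IR64 drought library, against 3.72% of tested loci, with a difference of 2.39 ± 1.61 (limma, 12 libraries, adjusted p = 0.594). The CCA1 groups overlapped with median-of-ratios scaling and in deposited TPM. GI was lower in every APO than in every IR64 drought library, against 10.2% of loci. This also held with median-of-ratios scaling (7.80% of loci), where OsPRR59 lay higher in APO (4.66% of loci), and not in deposited TPM. With 10 libraries 2 genes lay higher and 6 lower in APO without overlap, against 20.7 and 24.2% of loci.

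The difference between the cultivars' drought responses was tested as the drought change in APO minus that in IR64. With 12 libraries 0 of 10 genes were called (limma) where 0% of tested loci were called, and 2 were at unadjusted p < 0.05, beside 10.6% of loci. With 10 libraries 0 were called where 5.19% of loci were, and 7 were at unadjusted p < 0.05, beside 25.0% of loci. For CCA1 this difference was 7.19 ± 2.28 log2 units (SE, 12 libraries; limma, adjusted p = 0.321), with a positive fitted change in APO and a negative one in IR64. OsELF3-2 differed by -2.65 ± 1.16 (adjusted p = 0.444). OsPRR37 differed by -1.35 ± 1.12 and OsPRR73 by -1.32 ± 0.95, and with 10 libraries by -2.33 ± 0.61 (adjusted p = 0.0522) and -2.04 ± 0.56 (adjusted p = 0.0621). Without the library labelled APO drought 1 both of these passed (-2.52, adjusted p = 0.0379, and -2.27, adjusted p = 0.0455), beside 4.48% of loci. Without IR64 control 3 CCA1 passed (9.88, adjusted p = 0.00515), beside 1.55% of loci.

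Beyond the 10 genes, 20 other clock and photoperiod genes were followed, of which 19 passed the filter with 12 libraries. OsPCL1 (Os01g0971800, the LUX subunit of the evening complex) had 778, 653 and 523 nuclear-scaled TPM in the APO controls and 517, 363 and 238 under drought. The IR64 levels of OsPCL1 were 28.7, 1.17 and 454 in control and 339, 598 and 482 in drought. FKF1, a blue-light receptor and ubiquitin ligase subunit that acts with GI, had 16.0, 4.69 and 126 in the IR64 controls and 121, 180.2 and 75.5 under drought. OsPCL1 and FKF1 were thus both low in IR64 control 1 and 2, as OsELF3-2 was. The phytochrome genes PHYB and PHYC, which encode red-light receptors, were also lower in those 2 libraries than in the third. In IR64 control PHYB had 24.4, 22.9 and 84.6 and PHYC 21.4, 20.8 and 85.8. PHYA, OsMADS51, OsCRY1a, OsCRY2, Hd1, HD5, HD6, HD16 and the ELF4 genes of chromosomes 3 and 11 were lower there too, some only slightly. PHYA had 17.3 and 18.7 against 51.2. Not every gene of the list was lower. OsZTL1 and OsZTL2 were slightly higher, and OsCRY1b lay on both sides of the third library. Hd3a was higher in those 2 libraries (149.8 and 184 against 26.9), as was Ghd7 (3.97 and 4.24 against 1.68). The ELF4 gene of chromosome 8 stayed level (8.99, 9.65 and 9.59).

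In APO drought, with 12 libraries, 0 of these 19 rose and 1 fell, beside the 3.03% of all loci called. It was OsCRY1b, a blue-light receptor gene, which fell by 1.75 ± 0.43 log2 units (limma, adjusted p = 0.0449), from 73.4, 100.1 and 96.5 to 34.6, 22.9 and 21.7 nuclear-scaled TPM. It was called under 6 of 21 alternatives and not under the other 15 (adjusted p from 0.00206 to 0.696), with a negative difference in all of them. The next by p, which did not pass, were Hd3a (27.4, 65.0 and 0 in control and 0, 0 and 0.84 in drought; adjusted p = 0.172) and HD5 (-2.19 ± 0.86, adjusted p = 0.181). With 10 libraries 0 of 20 rose and 3 fell, OsCRY1b, Hd3a and the phytochrome gene PHYA (-2.58 ± 0.60, adjusted p = 0.0182), where 14.4% of loci were called. PHYA resembled OsPRR37 in APO drought, with 85.4, 5.73 and 14.5 nuclear-scaled TPM in libraries 1 to 3. Coverage of PHYA was only 0.55 reads per base in APO drought 2, a library that every PHYA call given here and below includes. The list median was -0.64 with 12 libraries, where that over all loci was -0.63.

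In IR64 drought 0 of the 19 were called with 12 libraries, beside 0.00764% of loci. The smallest p-values were those of Hd3a (limma, adjusted p = 0.108), OsPCL1 (3.90 ± 1.26, adjusted p = 0.419) and FKF1 (2.37 ± 0.87, adjusted p = 0.516). Hd3a, a florigen gene downstream of the clock, was listed at 0 in all 3 IR64 drought libraries. The IR64 controls had 149.8, 184 and 26.9 nuclear-scaled TPM of it. With 10 libraries 1 of 20 passed, Hd3a, which fell (adjusted p = 0.00737), beside 1.42% of loci. The list median was 0.08 with 12 libraries, where that over all loci was 0.04.

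Between cultivars 0 of the 19 were called in control or in drought with 12 libraries, the smallest p-values being those of OsPCL1 (4.38 ± 1.26, adjusted p = 0.357), FKF1 (2.62 ± 0.87, adjusted p = 0.475) and Hd3a (-2.90 ± 1.27, adjusted p = 0.639) in control. In drought they were those of the ELF4 genes of chromosome 11 (-1.25 ± 0.56, adjusted p = 0.393) and chromosome 3 (0.90 ± 0.55, adjusted p = 0.555) and of OsCRY1b (-0.85 ± 0.43, adjusted p = 0.464). With 10 libraries 2 of 20 were lower in APO under drought, the ELF4 gene of chromosome 11 (-1.77 ± 0.40, adjusted p = 0.0188) and PHYA (-2.08 ± 0.55, adjusted p = 0.0351), where 6.68% of loci were called lower. The drought response differed between cultivars for 0 of 19 with 12 libraries, with OsPCL1 (-4.76 ± 1.79, adjusted p = 0.377), FKF1 (-3.04 ± 1.23, adjusted p = 0.408) and PHYC (-1.94 ± 0.80, adjusted p = 0.419) smallest in p. It differed for 1 of 20 with 10, PHYA (-3.28 ± 0.78, adjusted p = 0.0408), where 5.19% of loci were called.

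Genes whose levels followed a clock gene most closely were ranked among 7813 named loci by Pearson's r of log2(nuclear-scaled TPM + 1) over the 12 libraries. They are given as a description, since the libraries share groups and depth and the genes were picked for a high r. For CCA1 they were SIP10 (r = 0.951, Spearman's rho = 0.923), OsABC1-2 (r = 0.948, rho = 0.916) and OsMyoVIIIA (r = 0.945, rho = 0.923). Without IR64 control 1 and 2, the libraries farthest from the CCA1 median, r was 0.856, 0.933 and 0.882 over 10 libraries. For OsPRR1 they were the translation initiation factor gene eIF-3c (r = 0.962, rho = 0.986), OsGATA22 (r = 0.958, rho = 0.951) and OsRpoTm (r = 0.949, rho = 0.937), with r from 0.925 to 0.976 without the 2 libraries farthest from its median. For GI they were OsmMDH (r = 0.96, rho = 0.965), the translation initiation factor gene eIF-4a (r = 0.939, rho = 0.853) and OsRpn9a (r = 0.939, rho = 0.951), with r from 0.884 to 0.951 without the 2 farthest. Over the 10 libraries without the 2 of low nuclear share, r was 0.928 to 0.96 for these 9 genes. They moved much less than CCA1, SIP10 for one running from 27.5 to 216 nuclear-scaled TPM.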

How the data were processed

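StringTie 1.3.4, HISAT2 2.1.0 and DESeq2 2.11.38 are listed in the submitters' processing notes, as given here without their roles. Per the file headers, each deposited gene table gives coverage, a signal unit (mean read depth per base, not scaled between libraries), FPKM and TPM. The deposited TPM have the same sum over all annotated genes in every library, with rRNA and organelle genes among them. The genome build and annotation are not given in the sources used here, and coordinates are those of the deposited tables. Read counts were not used here, so depth is known only as coverage divided by FPKM (0.58 in IR64 drought 3 to 7.08 in IR64 control 2), and no counting intervals are given. No 2 libraries held identical values.

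TPM were rescaled to that sum over nuclear loci. Loci with a mean of at least 1 were tested on log2(value + 1) by limma (version 3.58.1, in R 4.3.3; trend on intensity) with 4 group means and 1 shared spread. Its two-sided p-values were adjusted over all loci by Benjamini-Hochberg and called under 0.05. Fold changes on this scale understate the change of low genes. Ratios were tested by exact permutation (scipy 1.17.1), and the limma step was tested on simulated data. Tables and figures used Python 3.11.15, pandas 2.3.3, numpy 2.4.6 and matplotlib 3.10.9.

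All 10 clock genes are named, with called members of the list of other clock genes (or the 3 smallest p). The 3 named loci most like CCA1, OsPRR1 and GI are named too. PHYB, Ghd7, the ELF4 gene of chromosome 8 and the rest of that list are named besides, for their levels in IR64 control. The IDs Os10g0463400 and Os02g0771100 had been sought as Ehd1 and COP1. They were left out of the list of other clock genes because their deposited names (EF1, PPS) did not hold the name sought. Defensin-like genes that held the letters EFL were left out too. A further gene of the list as planned is not reported here. Genes typical of a cultivar were those at 8 or more nuclear-scaled TPM throughout it with a level 8 or more times that of the other cultivar, chosen without the library judged and without the 2 low ones. The clock genes, lists, rescaling and the choice of 10 libraries were made with earlier results of these data known.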

Additional observations from a re-analysis of the deposited data

How the results depend on the processing

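The number of clock genes called was 0 in all 5 comparisons with 12 libraries, and also with median-of-ratios scaling, a pseudocount of 0.1, a filter at 5 or none, a fit of only the groups compared (not possible for the difference between responses) and the replicate block. Without the 2 low-nuclear libraries it was 3 in APO, 1 in IR64 and 3 between cultivars under drought. In deposited TPM it was 1 in IR64 and 1 between cultivars in control, CCA1 in both, beside 2.14 and 1.26% of loci. With library weights it was 5 in APO, 5 in IR64, 7 between cultivars in control, 3 under drought and 7 for the difference between responses, beside 22.0, 26.4, 48.3, 8 and 25.3% of loci. Leaving out each library in turn gave 0 to 3 in APO, 0 to 2 in IR64, 0 to 2 between cultivars in control, 0 to 3 under drought and 0 to 2 for the difference. The libraries that moved a count were the one labelled APO drought 1 and IR64 control 3. The cause was not tested.

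Counts over all loci moved too. In APO 793 loci were called with 12 libraries and 3285 with 10, in IR64 2 and 325. The median over all tested loci was -0.63 in APO and 0.04 in IR64, against -0.75 and -0.94 in deposited TPM and -0.43 and -0.20 with median-of-ratios scaling, and the sign of several clock gene differences depended on the scaling. In deposited TPM the drought difference turned to -0.70 for OsPRR95 and -0.33 for OsPRR59 in APO, and in IR64 to -1.30 for OsPRR73, -1.12 for OsPRR95, -0.97 for OsPRR59, -0.52 for OsPRR1 and -0.42 for GI. With median-of-ratios scaling it turned to 0.043 for GI in APO, and in IR64 to -0.30 for OsPRR73, -0.11 for OsPRR95 and -0.0036 for OsPRR59. With a pseudocount of 0.1 the LHY-named locus turned to -0.54 between cultivars under drought. None of these passed.

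Leaving out 1 library turned the sign of 6 of 30 differences, whose ranges were -0.22 to 3.56 (LHY-named locus), -1.04 to 0.0003 (OsPRR1), -0.35 to 0.21 (GI) and -0.98 to 0.21 (OsELF3-2) in APO, -0.42 to 0.0738 (OsELF3-1) in IR64 and -0.79 to 2.98 (LHY-named locus) between cultivars under drought. All 4 ratio differences kept their direction under every alternative run, with p no lower than 0.1 (exact permutation). In APO, where the groups did not overlap, leaving out 1 library could not turn the sign. The scaling of a library cancels in a ratio apart from the pseudocount, so deposited TPM was hardly a separate check.

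Same-numbered control and drought libraries did not deviate together (r of deviations across loci 0.01, -0.16 and -0.23 in APO and -0.16, 0.03 and 0.0001 in IR64), so the numbers were not taken as pairs. With the replicate block 0 clock genes were called in each comparison, and 587 loci in APO and 0 in IR64 (1743 at unadjusted p < 0.05).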

Other observations

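The locus Os02g0771100 is named PPS in the deposited tables and was sought as COP1. It had its highest nuclear-scaled TPM, 128 and 171, in IR64 control 1 and 2, where CCA1 was also highest. The third IR64 control had 16.5. Its range was 11.6 to 27.8 in IR64 drought and 18.3 to 25.7 in APO control. The APO drought libraries had 0, 26.6 and 31.7. It was looked at after its values were seen.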
